A study of Danio rerio with 2 samples.

Results

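The *tac1* *chga* motor neurons of the 28 hpf zebrafish trunk were chosen by their UMI counts, a UMI being 1 captured RNA molecule. Cells of the 28 hpf library were kept with at least 1000 genes and under 5% of UMIs from embryonic globin genes, and a member had at least 10 UMIs of *tac1*, at least 3 of *chga*, at most 2 of *pkd1l2a* and at most 4 of *olig2*. There were 466 members among the 7664 cells kept, or 6.08% (exact binomial 95% interval 5.56% to 6.64%), and 18029 cells in the whole series. The values of these 4 genes are therefore described and support nothing.

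All cells came from *Tg(olig2:dsRed)* fish crossed to wild type, in which *olig2* regulatory sequence drives dsRed, a protein that outlasts *olig2* in the progeny, and fluorescent cells were sorted from dissociated trunks of pooled embryos at 28 hpf or 60 hpf. One 10× Genomics 3′ library was made per stage. The members were set beside 3 groups, all of this genotype and tissue. The *dlb* cells were 1163 cells of 28 hpf with *isl1* and *mnx1* at 2 UMIs or more together and at least 10 UMIs of *dlb*, less any member. The *tac1*-low cholinergic cells were 205 cells of 28 hpf with at least 3 UMIs of *chata* and *slc18a3a* together, at most 2 of *tac1* and under 10 of *dlb*, under the same limits on *pkd1l2a* and *olig2*. The 60 hpf *tac1* *chga* cells were the 267 cells of the later library that met the rule of the members. A level is the sum of a gene's UMIs over a group per 10000 UMIs, with an exact Poisson 95% interval. A gene counts as higher or lower when its levels in a pair of groups lie 2-fold apart or more, given 20 UMIs or more in one of them. There was 1 library per stage, so no test was possible, and every interval covers counting error only and not the spread between embryos or libraries.

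Spinal motor neurons arise from *olig2*-positive progenitors of the ventral cord. As they differentiate they leave the cell cycle, lose Notch target and proneural transcripts, and make the enzymes and transporters that synthesize acetylcholine and load it into vesicles for release at muscle. *tac1* encodes the precursor of the tachykinins substance P and neurokinin A, and *chga* encodes chromogranin A, a protein of dense-core secretory granules. *dlb* encodes a Delta ligand of Notch that newly born neurons carry.

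The 28 hpf library held 10124 barcodes with 95108584 UMIs and the 60 hpf library 7905 barcodes with 70432500 UMIs, and 24 barcodes occurred in both, none of them among the *tac1* *chga* cells of the 2 libraries. The members had a median of 8783 UMIs per cell (1751 to 36731) and 2577 genes, against 7838 UMIs in *dlb* cells, 5635 in *tac1*-low cholinergic cells and 8958 in the 60 hpf cells. Scrublet predicted 3.43% of members to be doublets, against 16.8% of *dlb* cells, 2.44% of *tac1*-low cholinergic cells and 2.25% of the 60 hpf cells. The limits on *pkd1l2a* and *olig2* removed deep cells. Of 688 cells past both lower limits, 121 were over the *pkd1l2a* limit (median 22207 UMIs, 43.8% predicted doublets), 163 over the *olig2* limit (median 23940 UMIs, 52.8% predicted doublets) and 62 over both. Of the members 67, with a median of 13702 UMIs, also met the *dlb* rule, which sets no limit on *pkd1l2a* or *olig2*.

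**Figure D1:**
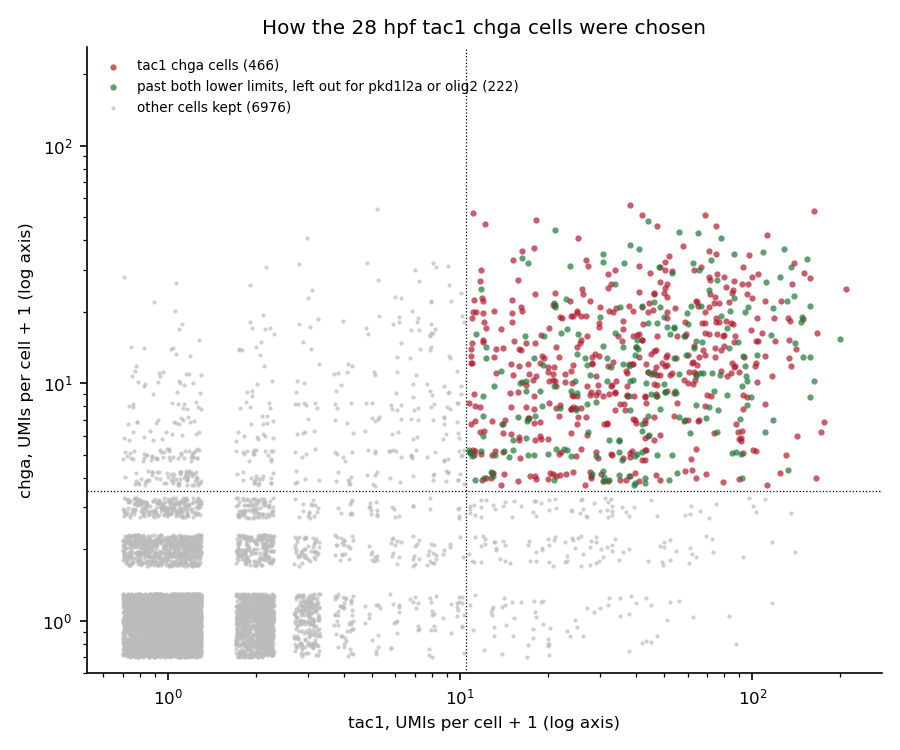
UMIs of *tac1* (x axis) and *chga* (y axis) in each of the 7664 cells kept at 28 hpf, both plus 1 on log axes and jittered. The 466 members and the 222 cells left out for *pkd1l2a* or *olig2* share the upper right field, and the dotted lines are the lower limits of the rule.

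In the genes that chose them, the members spread widely. *tac1* ran between 10 and 208 UMIs per cell with a median of 37, and *chga* between 3 and 55 with a median of 11. The summed level of *tac1* was 48.3 per 10000 (47.7 to 49.0) in the members, 5.85 in *dlb* cells, 1.04 in *tac1*-low cholinergic cells and 20.9 in the 60 hpf cells. In *dlb* cells the median of *tac1* per cell was 0 UMIs, and 182 of the 1163 had 10 or more. The level was 0.19 in erythroid cells, which should lack the gene, with their globin UMIs in the total. At the edge of the rule, the 63 members with 10 to 14 UMIs of *tac1* had 9.49 UMIs per 10000 of *slc18a3a*, 4.21 of *mnx1*, 9.31 of *calb2b*, 5.39 of *tbx3a*, 4.65 of *dlb* and 0.37 of the Notch target *her4.1*. The 68 cells just below, with 5 to 9 UMIs of *tac1* and otherwise within the rule, had 9.71, 4.46, 7.96, 4.33, 8.33 and 1.43, so the cells outside held more *dlb* and *her4.1*. The 41 members with 3 UMIs of *chga* had 4.59 UMIs per 10000 of *calb2b* and 3.03 of *nefmb*, a neurofilament gene, and the 39 cells with 2 UMIs of *chga* had 5.75 and 8.72. The 24 members with 3 or 4 UMIs of *olig2* had 1.66 UMIs per 10000 of *her4.1*, and the 6 cells with 5 or 6 UMIs had 0.25.

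The members carried the transcripts of cholinergic motor neurons, which the rule did not use. The vesicular acetylcholine transporter *slc18a3a* had a UMI in 97.6% of members, choline acetyltransferase *chata* in 90.1%, the LIM homeobox gene *lhx4* in 93.8%, its relative *isl2a* in 79.6% and the motor neuron homeobox gene *mnx1* in 75.1%. Its relatives *mnx2a* and *mnx2b* had a UMI in 35.8% and 38.6% of members and *isl2b* in 8.37%. At 4000 UMIs per cell *mnx2a* was found in 21.3% of members and 31.7% of *dlb* cells, *mnx2b* in 26.1% and 16.8%, and *isl2b* in 4.78% and 11.01%, so these 3 genes were not general to the members. Erythroid cells, with a median of 33378 UMIs of which 11985 were not globin, had a UMI of *slc18a3a* in 9.44% of cells and of *chata* in 3.27%. With every cell thinned to 4000 UMIs, which 418 of the 466 members could reach, *slc18a3a* was present in 94.02% of members, 44.0% of *dlb* cells, 96.6% of *tac1*-low cholinergic cells, 98.8% of 60 hpf cells and 1.63% of erythroid cells. So nearly every member had the transporter at 4000 UMIs. The *tac1*-low cholinergic cells were chosen on *chata* and *slc18a3a*, so their share follows from their rule. Erythroid cells had a median of 63.5% globin UMIs, so at 4000 UMIs they held fewer other UMIs than the members. Their shares here and below therefore understate the background.

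Markers of several other classes were low in the members. Within the members, the radial glia, sensory neuron and erythroid markers summed to more than the muscle markers. The vesicular inhibitory transporter *slc32a1* had 0.033 UMIs per 10000, the GABA enzyme *gad1b* 0.040, the glutamate transporter *slc17a6b* 0.062 and the oligodendrocyte lineage factor *sox10* 0.0089. In erythroid cells *slc32a1* had 0.026, *gad1b* 0.035, *slc17a6b* 0.031 and *sox10* 0.00053. These erythroid levels are over all UMIs, globin included, and so understate the background. The 15 muscle markers summed to 0.40 in the members and 0.94 in *dlb* cells. The 10 radial glia and floor plate markers summed to 6.69 in the members and 17.4 in *dlb* cells, with *slc1a3a* at 1.01 in the members. The 16 Rohon-Beard and sensory neuron markers summed to 1.93 and 1.19, with 3 of 8 measured higher in the members and 3 lower. The 9 erythroid markers summed to 14.6 and 13.8. The globin gene *hbbe1.1* had 1.73 UMIs per 10000 in the members, which the limit of 5% allowed.

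Of the markers given with the class, *calb2b*, which encodes calretinin, ran between 0 and 63 UMIs per member with a median of 4. Its level was 8.33 per 10000 (8.06 to 8.60) in the members, 0.69 in *dlb* cells, 5.42 in *tac1*-low cholinergic cells and 1.79 in the 60 hpf cells. *pcp4a*, which encodes a calmodulin-binding peptide, had a median of 1 UMI and a highest value of 127, and its level was 8.58 in the members, 0.43 in *dlb* cells, 2.06 in *tac1*-low cholinergic cells and 1.94 in 60 hpf cells. The T-box factor *tbx3a* had a median of 3 UMIs and a highest value of 36, and its level was 5.46 in the members, 1.06 in *dlb* cells, 5.596 in *tac1*-low cholinergic cells and 0.51 in 60 hpf cells. At 28 hpf only *pcp4a* of the 3 was at least 2-fold higher in the members than in both other groups. At 4000 UMIs per cell, *calb2b* was found in 69.9% of members (65.2% to 74.2%), against 13.6% of *dlb* cells, 37.4% of *tac1*-low cholinergic cells, 40.9% of 60 hpf cells and 2.36% of erythroid cells. *pcp4a* was found in 50.7% of members, against 6.73% of *dlb* cells, 16.3% of *tac1*-low cholinergic cells, 34.3% of 60 hpf cells and 1.63% of erythroid cells. *tbx3a* was found in 66.0% of members, against 21.0% of *dlb* cells, 66.0% of *tac1*-low cholinergic cells, 20.5% of 60 hpf cells and 0.73% of erythroid cells.

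**Figure D2:**
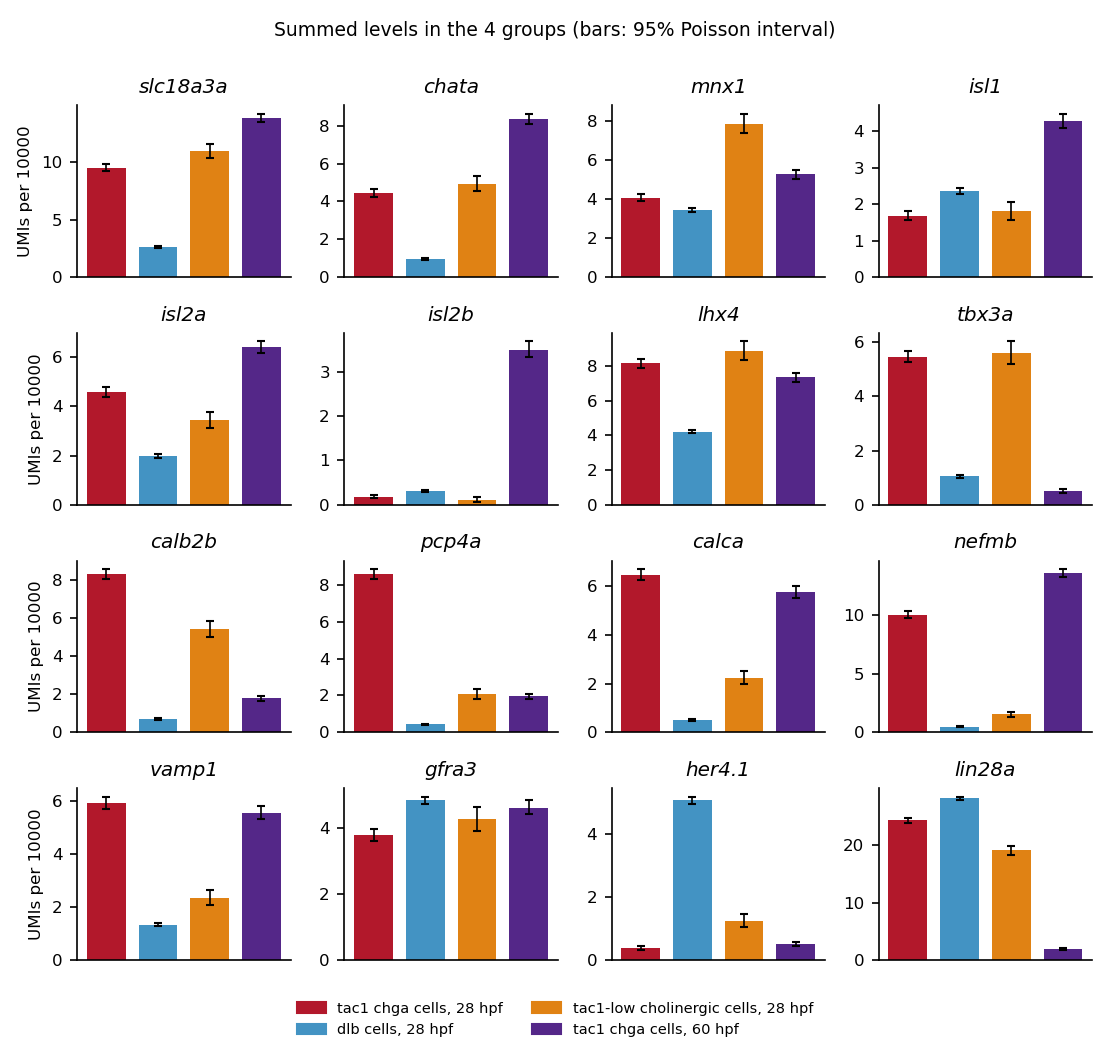
Summed level in UMIs per 10000 (y axis, starting at 0) of 16 genes in the *tac1* *chga* cells of 28 hpf, the *dlb* cells, the *tac1*-low cholinergic cells and the *tac1* *chga* cells of 60 hpf; bars are levels and whiskers the exact Poisson 95% intervals. *pcp4a* stands at 8.58 in the members and at 2.06 or below in the other 3 groups, and *lin28a* at 24.4 in the members against 1.90 at 60 hpf.

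Against *dlb* cells, the members carried more of the transcripts of transmission and less of those of precursors. All 5 cholinergic genes measured were higher, 25 of 30 synaptic vesicle release genes were higher and 1 was lower, and 37 of 44 precursor and Notch genes and 28 of 31 cell cycle genes were lower. The rules bear on the precursor and cell cycle counts. The *dlb* cells were chosen on a Notch ligand gene and had no *olig2* limit, with up to 272 UMIs per cell. Without the *olig2* limit of the members, 26 precursor and Notch genes and 1 cell cycle gene were lower. Among all 13992 genes with enough UMIs, 2302 (16.5%) were higher in the members and 2433 (17.4%) lower, with a median log2 ratio of 0.04. Each log2 ratio has the members on top and a pseudocount of 1 UMI.

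Among the cholinergic genes, *slc18a3a* had 9.55 UMIs per 10000 in the members and 2.62 in *dlb* cells (log2 ratio 1.86, 95% interval 1.80 to 1.93). *chata* had 4.45 in the members and 0.96 in *dlb* cells, *ache*, the enzyme that breaks down acetylcholine, 9.17 and 1.52 in the same order, and the choline transporter *slc5a7a* 4.59 and 1.22. The second vesicular transporter gene, *slc18a3b*, had 0.84 in the members and 0.051 in *dlb* cells (log2 ratio 4.03, 3.67 to 4.44). *agrn* encodes agrin, which gathers acetylcholine receptors at the neuromuscular junction, and was at 19.4 in the members and 6.05 in *dlb* cells.

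The neurofilament genes, which encode the intermediate filaments of axons, had among the highest ratios over all genes. *nefmb* was at 10.02 UMIs per 10000 in the members and 0.47 in *dlb* cells (log2 ratio 4.43, 4.31 to 4.55), *neflb* at 4.34 and 0.16 (4.78) and *nefma* at 1.36 and 0.20 (2.74). In single members *nefmb* ran between 0 and 217 UMIs with a median of 1, so a minority of members held most of it. Peripherin, *prph*, was at 0.54 in the members and 0.32 in *dlb* cells and did not reach 2-fold.

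Among the vesicle genes, the complexin gene *cplx2l* reached 43.4 UMIs per 10000 in the members and 5.52 in *dlb* cells (log2 ratio 2.98), and the synaptotagmin gene *syt12* 3.35 and 0.21 (4.03). The genes of the fusion machinery were higher by less, with *snap25a* at 14.6 in the members and 3.49 in *dlb* cells and *stxbp1a* at 16.4 and 5.43. *syt5b* was the lower one, at 0.0089 in the members and 0.14 in *dlb* cells. Calcium-binding proteins had 10 of 17 genes higher and 2 lower, calmodulin gene *calm1b* being at 11.9 in the members and 1.52 in *dlb* cells.

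Channel and receptor genes followed the same direction against *dlb* cells. Of 20 voltage-gated calcium channel genes 13 were higher and none lower, the pore subunit gene *cacna1ab* being at 5.83 in the members and 1.38 in *dlb* cells. Of 17 potassium channel genes 12 were higher and 2 lower, and of 10 sodium channel genes 5 were higher and 2 lower, with *scn8aa* at 1.90 in the members and 0.57 in *dlb* cells. The sodium channel genes called lower were near the share over all genes, 17.4%. Transmitter receptor subunits had 23 of 28 genes higher and 1 lower. The NMDA receptor subunit gene *grin1a* was at 3.53 in the members and 0.30 in *dlb* cells (log2 ratio 3.57, 3.41 to 3.73), and the nicotinic subunit genes *chrna2a* and *chrna5* were at 2.94 and 4.27 in the members and at 0.46 and 1.17 in *dlb* cells. *slc12a5b*, whose product exports chloride from neurons, was at 0.93 in the members and 0.066 in *dlb* cells.

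Among pan-neuronal genes 19 of 25 were higher and 1 lower. The RNA-binding protein genes *elavl4* and *elavl3* parted, with *elavl4* at 16.8 in the members and 2.92 in *dlb* cells, and *elavl3* at 21.2 in the members and 43.7 in *dlb* cells (log2 ratio -1.05). Glycolysis and creatine kinase genes had 17 of 23 higher and 2 lower, and oxidative phosphorylation genes 26 of 58 higher and none lower, while none of 82 cytosolic ribosomal protein genes was higher and 2 were lower. The median share of mitochondrial UMIs was 0.71% in the members and 0.44% in *dlb* cells. Whether cell quality had a part in these lists was not tested.

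Of 19 trophic receptor and neuromuscular signal genes 11 were higher and 1 lower. *gfra1b*, which encodes a receptor for GDNF, was at 2.82 UMIs per 10000 in the members and 0.37 in *dlb* cells (log2 ratio 2.94, 2.80 to 3.10). The related receptor gene *gfra3* was at 3.79 in the members and 4.84 in *dlb* cells, and *ret*, their signalling partner, at 3.86 and 4.28, and neither reached 2-fold. Outside this list, the chemokine receptor gene *cxcr4b* was at 2.06 in the members and 8.09 in *dlb* cells (log2 ratio -1.97). Among 58 axon growth and guidance genes 23 were higher and 9 lower. Over all genes 16.5% were higher and 17.4% lower, so the axon genes called lower were near that share. The semaphorin receptor gene *nrp2b* was at 3.08 in the members and 0.50 in *dlb* cells and the ephrin receptor gene *epha4a* at 0.23 and 1.397.

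Of 23 motor neuron transcription factor genes 3 were higher and 8 lower. The number higher was near the share over all genes, 16.5%. Those higher were *tbx3b* (1.097 in the members, 0.099 in *dlb* cells, log2 ratio 3.47), *tbx3a* (2.37) and *isl2a* (4.596 and 1.99, 1.21). Among those lower were *nkx6.1*, a homeobox gene of ventral progenitors and of some motor neurons, at 0.27 in the members and 1.99 in *dlb* cells (-2.86), the nuclear receptor genes *nr2f2* at 0.56 and 2.38 (-2.08) and *nr2f1a* at 0.61 and 2.03 (-1.73), and *ebf2* at 1.44 and 4.07 (-1.49). *lhx4* was at 8.17 in the members and 4.22 in *dlb* cells (0.95), just under 2-fold, and *onecut1* at 4.85 and 5.08.

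Of the precursor genes, *her4.1* was at 0.38 in the members and 5.06 in *dlb* cells (log2 ratio -3.74), and its near-identical copies make the count of each *her4* gene uncertain. The proneural gene *neurod4* was at 0.11 in the members and 1.80 in *dlb* cells, *neurog1* at 0.12 and 1.06, the receptor gene *notch1a* at 0.82 and 4.75, and the proliferation gene *mki67* at 0.26 and 1.01. Without the *olig2* limit of the members, 989 genes in place of 2433 were lower in the members and cell cycle genes had 1 lower in place of 28, with 26 precursor and Notch genes lower.

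Neuropeptide precursors had 3 of 16 genes higher and 11 lower, the number higher being near the share over all genes, 16.5%. *calca*, the gene of calcitonin and calcitonin gene-related peptide, was at 6.46 UMIs per 10000 in the members and 0.50 in *dlb* cells (log2 ratio 3.70, 3.58 to 3.82), *nts*, the neurotensin precursor gene, at 0.23 and 0.011 (4.35), and *pnoca*, the prepronociceptin gene, at 0.35 and 0.041 (3.07). Several of the lower genes mark Kolmer-Agduhr neurons, which contact the cerebrospinal fluid and which the *pkd1l2a* limit kept from the members but not from the *dlb* cells, such as the somatostatin gene *sst1.1* at 0.089 in the members and 3.77 in *dlb* cells. The *dlb* cells included 186 cells with over 2 UMIs of *pkd1l2a*, of which 45.7% were predicted doublets. Against the other 977 *dlb* cells, an alternative chosen after seeing the data, 4 neuropeptide precursors in place of 11 were lower, 3 of 7 Kolmer-Agduhr markers in place of 8 of 8, and 2 of 6 inhibitory transmitter markers, with 1 higher, in place of 7 of 7. The cholinergic (5 of 5 higher), synaptic vesicle (27 of 30 higher), precursor and Notch (35 of 42 lower) and cell cycle (28 of 30 lower) counts differed little from those above. These 977 cells still had no *olig2* limit, with a median of 3 UMIs and up to 148. This alternative therefore leaves the difference in *olig2* limits in place.

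**Figure D3:**
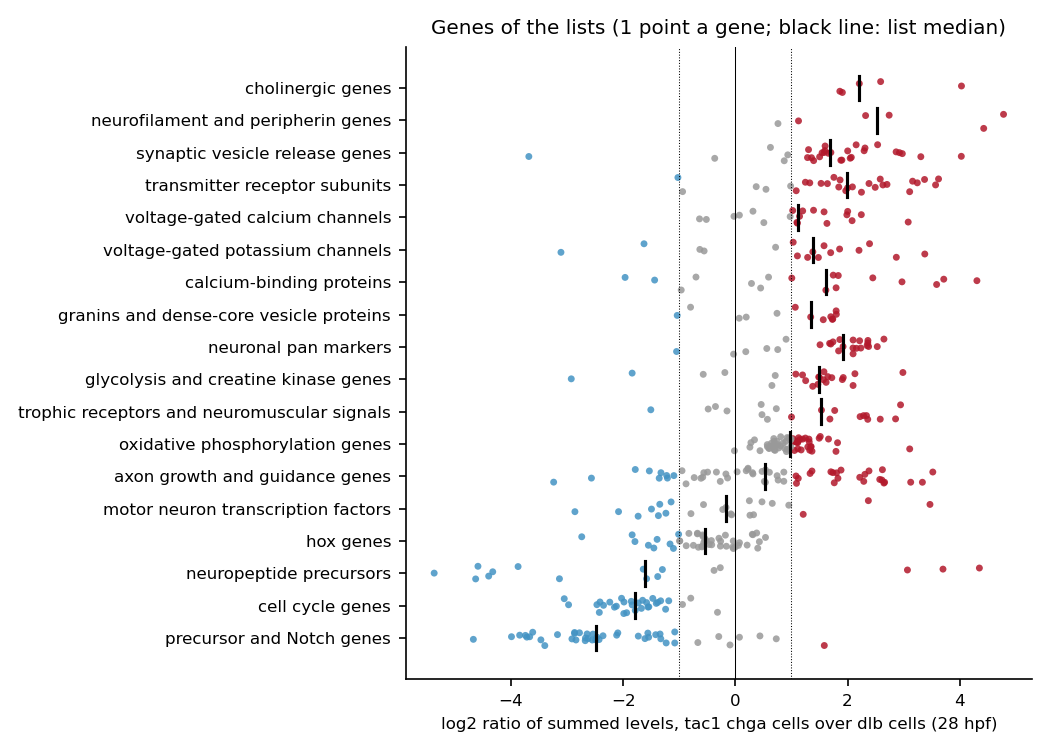
Log2 ratio of summed levels, members over *dlb* cells (x axis), for every gene of 18 lists with at least 20 UMIs in either group; 1 point a gene, red at least 2-fold higher in the members, blue at least 2-fold lower, black lines list medians. The median was 2.21 for the cholinergic genes, 1.68 for synaptic vesicle release genes and -2.48 for precursor and Notch genes, and 0.04 over all genes.

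The *tac1*-low cholinergic cells of the same library differed less from the members. Of 9896 genes, 442 (4.47%) were higher in the members and 338 (3.42%) lower, and 1 of 36 precursor and Notch genes was higher and 12 lower. Without the *olig2* limit of the members, 9 precursor and Notch genes were higher and 1 lower. The *tac1*-low cholinergic cells kept their limit in that setting, so it compares groups under unlike limits and is described only. Most genes of the lists that were higher against *dlb* cells were not called here. Calcium channel genes had 1 of 18 higher and 1 lower, and transmitter receptor subunits 1 of 27 higher and 2 lower. Potassium channel genes had 2 of 16 higher and pan-neuronal genes 2 of 25, with none lower. Synaptic vesicle release genes had 5 of 29 higher and 1 lower. None of 19 glycolysis and creatine kinase genes or 58 oxidative phosphorylation genes was called. Neurofilament genes had 3 of 6 higher and 1 lower. *nefmb* was at 10.02 UMIs per 10000 in the members and 1.54 in *tac1*-low cholinergic cells (log2 ratio 2.70, 2.49 to 2.92), *neflb* at 4.34 and 0.66 (2.69) and *nefma* at 1.36 and 0.37 (1.86). *calca* was at 6.46 and 2.23 (1.53) in the same order, *syt12* at 3.35 and 1.01 (1.71), and *vamp1*, a synaptobrevin gene, at 5.94 and 2.35 (1.34). *tbx3a* (-0.04), *calb2b* (0.62), *cplx2l* (0.81), *lhx4* (-0.12), *ret* (0.00) and *gfra3* (-0.17) did not reach 2-fold. For *calb2b* the median per cell was 4 UMIs in the members and 0 in *tac1*-low cholinergic cells.

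Among the genes with the highest ratios over *tac1*-low cholinergic cells were the adhesion genes *ncam2* (0.78 in the members, 0.12 in *tac1*-low cholinergic cells) and *flrt1b* (2.48 and 0.52), the retinol dehydrogenase gene *rdh10a* (1.06 and 0.17) and the homeobox gene *irx1a* (0.59 and 0.11). The *tac1*-low cholinergic cells held few UMIs of these genes, 15 of *ncam2*, 63 of *flrt1b*, 21 of *rdh10a* and 13 of *irx1a*. A single cell gave 40% of those of *ncam2*. Among those with the lowest were the retinoic acid-binding protein gene *crabp1b* (0.50 and 3.68), the caudal-type homeobox gene *cdx4* (0.23 and 1.46) and the ephrin receptor gene *epha4b* (0.92 and 3.19). The peptide gene *galn* and the calbindin gene *calb1* were also lower in the members, but 5 of the 205 *tac1*-low cholinergic cells held 99.8% and 99.1% of the UMIs of these genes.

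The members had lower summed levels of the posterior *hox* genes than the *tac1*-low cholinergic cells. Of 43 *hox* genes 17 were lower in the members and 1, *hoxb6b*, was higher. The genes of paralog groups 10 to 12 summed to 7.70 UMIs per 10000 in the members (7.45 to 7.97), 9.81 in *dlb* cells, 23.5 in *tac1*-low cholinergic cells and 10.9 in 60 hpf cells. Those of group 13 summed to 0.21, 0.51, 3.09 and 0.86 in the same order of groups. *hoxc10a* was at 1.29 in the members and 5.48 in *tac1*-low cholinergic cells (log2 ratio -2.08, -2.25 to -1.92), and *hoxc13a* at 0.12 and 1.78 (-3.84, -4.31 to -3.42).

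At the other end, groups 1 to 4 summed to 11.3 in the members and 11.8 in *tac1*-low cholinergic cells, and groups 5 to 8 to 6.76 and 6.28. A UMI of a group 13 gene was found in 38 members, 8.15% of them, against 33.7% of *tac1*-low cholinergic cells, while a UMI of groups 10 to 12 was found in 67.2% of members and 82.9% of *tac1*-low cholinergic cells. The *tac1*-low cholinergic cells had the higher share at the lower median depth. *hox* genes of the higher paralog groups are known to be active toward the tail, and the position of single cells along the trunk was not measured.

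**Figure D4:**
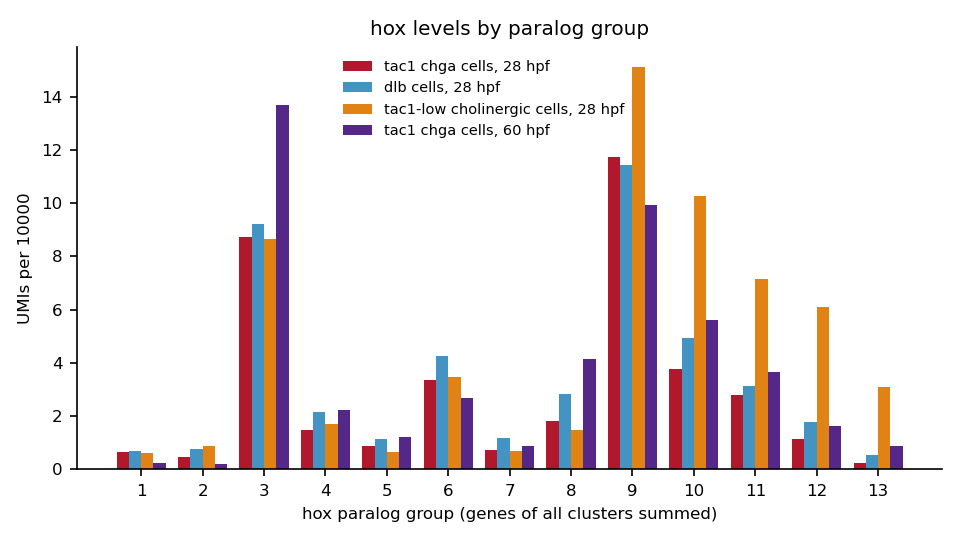
Summed level in UMIs per 10000 (y axis, starting at 0) of the *hox* genes of each paralog group (x axis, 1 to 13) in the *tac1* *chga* cells of 28 hpf, the *dlb* cells, the *tac1*-low cholinergic cells and the *tac1* *chga* cells of 60 hpf. Groups 10 to 13 are highest in the *tac1*-low cholinergic cells, where *hoxc10a* alone has 5.48 against 1.29 in the members.

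In summed level, the cells that met the same rule at 60 hpf had less *calb2b*, *pcp4a*, *tbx3a* and *lin28a* than the members. They had more *isl2b*, *foxp1b* and *nr2f2*. Of 10866 genes, 1150 (10.6%) were higher at 28 hpf and 1784 (16.4%) lower, with a median log2 ratio of -0.29 over all genes, or -0.18 where totals left out globin, mitochondrial and ribosomal protein genes. Stage and library cannot be told apart here. The 60 hpf cells were also the more uneven in depth, with an upper quartile of 18518 UMIs against 11901 in the members. Muscle markers summed to 0.40 at 28 hpf and 1.34 at 60 hpf, skin markers to 0.36 and 0.90, and their part in the result was not tested. Of 5 cholinergic genes 1 was higher and none lower, *slc18a3b* being the higher one at 0.84 at 28 hpf and 0.40 at 60 hpf, with *slc18a3a* at 9.55 at 28 hpf and 13.9 at 60 hpf and *chata* at 4.45 and 8.36. *calca* (0.17), *vamp1* (0.09), *ret* (0.02) and *tbx3b* (0.12) stayed within 2-fold. Their medians per cell lay further apart where measured. In UMIs per 10000, *calca* was at 3.40 at 28 hpf and 6.16 at 60 hpf and *vamp1* at 3.43 and 6.31. *ret* went the other way, at 2.83 and 1.46. Neurofilament genes had none of 6 higher and 2 lower at 28 hpf. The summed level of *nefmb* stayed within 2-fold (-0.44), but its median per cell was 1 UMI at 28 hpf and 9 at 60 hpf, and at 4000 UMIs it was found in 48.1% of members and 82.7% of 60 hpf cells.

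The 3 given markers other than *tac1* and *chga* were all higher at 28 hpf, *calb2b* by a log2 ratio of 2.22 (2.10 to 2.34), *pcp4a* by 2.14 (2.03 to 2.25) and *tbx3a* by 3.41 (3.21 to 3.62). *lin28a*, which encodes an RNA-binding protein of developmental timing, was at 24.4 UMIs per 10000 at 28 hpf and 1.90 at 60 hpf (3.69, 3.58 to 3.79), and at 4000 UMIs was present in 99.3% of members, 40.2% of 60 hpf cells and 6.72% of erythroid cells. It was not particular to the members at 28 hpf, with a median per cell of 22.1 UMIs per 10000 in them, 26.4 in *dlb* cells and 17.6 in *tac1*-low cholinergic cells. *s100a1*, a calcium-binding protein gene, had 1732 UMIs in the members and 2 at 60 hpf (log2 ratio 9.04, 7.77 to 12.67). Others higher at 28 hpf were *onecut3b* (7.90 and 1.37), *ebf2* (1.44 and 0.25), the nicotinic subunit genes *chrna2a* (2.94 and 0.13) and *chrna5* (4.27 and 0.64), the growth factor receptor gene *met* (1.53 and 0.093), the vesicle gene *sv2bb* (3.91 and 0.55) and *cplx2l* (43.4 and 15.3). Per cell, *cplx2l* lay closer, with a median of 37.4 UMIs per 10000 at 28 hpf and 26.8 at 60 hpf.

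Lower at 28 hpf were *isl2b*, at 0.18 against 3.496 at 60 hpf (log2 ratio -4.28), and *foxp1b*, a factor of limb-innervating motor neurons in mouse and chick, at 0.098 against 2.47 (-4.62). Per cell, *foxp1b* had a median of 0 UMIs in both groups, with an upper quartile of 0 at 28 hpf and 2 at 60 hpf. The nuclear receptor genes *esrrga* (0.34 against 4.77), *nr2f2* (0.56 against 5.53) and *nr2f1a* (0.61 against 4.58) were lower as well, as were *lhx1a* (0.0089 against 0.71) and *aldh1a2*, the gene of a retinoic acid-making enzyme (0.0089 against 0.55). *isl2a* (4.596 against 6.39) and *lhx4* (8.17 against 7.34) were within 2-fold, so the LIM homeobox genes did not move together. Of 57 axon growth and guidance genes 6 were higher and 16 lower, with *gap43*, a protein of growth cones, at 4.26 against 11.8 at 60 hpf and the plexin gene *plxna4* at 0.43 against 2.86. *snap25b* was at 0.50 against 3.40 while *snap25a* was at 14.6 against 10.6. Of 37 precursor and Notch genes 16 were higher and 3 lower, and of 20 cell cycle genes 9 were higher and none lower. These counts moved with the settings, between 9 and 21 precursor and Notch genes higher and between 2 and 25 cell cycle genes higher, with 25 of 28 without the *olig2* limit. Of 43 *hox* genes 5 were higher and 14 lower, *hoxc3a* being at 3.22 against 8.86. Over all genes 10.6% were higher and 16.4% lower. The axon growth and *hox* genes called higher were near that share.

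Within the 466 members, the given markers were found together in part of the cells. A UMI of *calb2b*, *pcp4a* and *tbx3a* together was found in 222 members (47.6%), of 2 of them in 130, of 1 in 76 and of none in 38 (8.15%). The level of *nefmb* was 17.8 per 10000 in members with all 3, 1.74 with 2, 0.74 with 1 and 0.40 with none, while *gfra3* was at 1.78, 4.41, 7.55 and 9.79 in the same order. Members with all 3 were also deeper, with a median of 9853 UMIs against 6545 with none.

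The 370 members with a UMI of *calb2b* (median 9100 UMIs, 44 meeting the *dlb* rule, 14 predicted doublets) were set beside the 96 without (median 7397 UMIs, 23 meeting the *dlb* rule, 2 predicted doublets), as a description of the cells that gave the split. Of 9314 genes 964 (10.4%) were higher in members with *calb2b* and 259 (2.78%) lower. Members with *calb2b* held 3679154 UMIs in sum and those without 805203. A gene could therefore meet the UMI minimum in the larger group while few UMIs were to be expected in the smaller. Counting error could carry such a gene past the fold limit, so the numbers higher and lower cannot be compared. *nefmb* was at 11.97 with *calb2b* and 1.09 without, *neflb* at 5.26 and 0.14, *pcp4a* at 10.2 and 0.99, *calca* at 7.57 and 1.39, *vamp1* at 6.90 and 1.56, and *gfra1b* at 3.31 and 0.60. In the other direction, *gfra3* was at 2.91 with *calb2b* and 7.80 without, *ret* at 3.22 and 6.76, *cxcr4b* at 1.60 and 4.17, *isl1* at 1.41 and 2.87, *dlb* at 4.19 and 10.4, the Notch ligand gene *jag1b* at 0.55 and 1.73 and *nr2f1a* at 0.43 and 1.403. Thus the GDNF-family receptor genes ran in opposite directions, *gfra1b* with *calb2b* and *gfra3* and *ret* against it.

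By list, 8 of 11 calcium-binding protein genes, 11 of 29 synaptic vesicle release genes and 4 of 6 neurofilament genes were higher with *calb2b*. Those lower were 8 of 23 motor neuron transcription factor genes and 6 of 35 precursor and Notch genes. The unequal UMI totals of the groups bear on these list counts as well. Of 5 cholinergic genes *ache* (10.1 with *calb2b*, 4.97 without) and *slc18a3b* (0.98 and 0.17) were higher with *calb2b*, and the others stayed within 2-fold, with *slc18a3a* at 9.67 with *calb2b* and 8.99 without (log2 ratio 0.10, -0.01 to 0.22), *slc5a7a* at 4.602 and 4.56 (0.01) and *chata* at 4.65 and 3.58 (0.37). *lhx4* was at 8.11 with *calb2b* and 8.43 without, and *mnx1* at 3.83 and 5.204.

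As a finer view of this split, the same cells were placed in 6 bins, the 96 cells with no *calb2b* and then 5 bins of 74 cells by rising *calb2b* level. The bins reuse the cells and the gene of the split, so they add no separate support. From the lowest to the highest bin, *pcp4a* was at 0.99, 1.69, 3.40, 7.48, 11.4 and 28.5 UMIs per 10000, and *nefmb* at 1.09, 3.21, 5.26, 7.34, 12.3 and 33.1. *gfra3* was at 7.80, 4.90, 3.77, 3.16, 1.88 and 0.38 in the same bins, and *isl1* at 2.87, 2.001, 1.39, 1.57, 1.08 and 0.86. *tac1* neither rose nor fell steadily, at 52.4, 42.2, 49.4, 53.3, 51.0 and 42.5, and *slc18a3a* lay between 8.71 and 11.1. *chga*, of the rule, was at 10.3, 9.26, 13.7, 14.5, 19.0 and 17.1, and *mnx1* at 5.204, 4.76, 3.74, 3.92, 3.72 and 2.81. Median depth did not follow the bins, at 7397, 10196, 7732, 8845, 8328 and 9889 UMIs per cell.

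**Figure D5:**
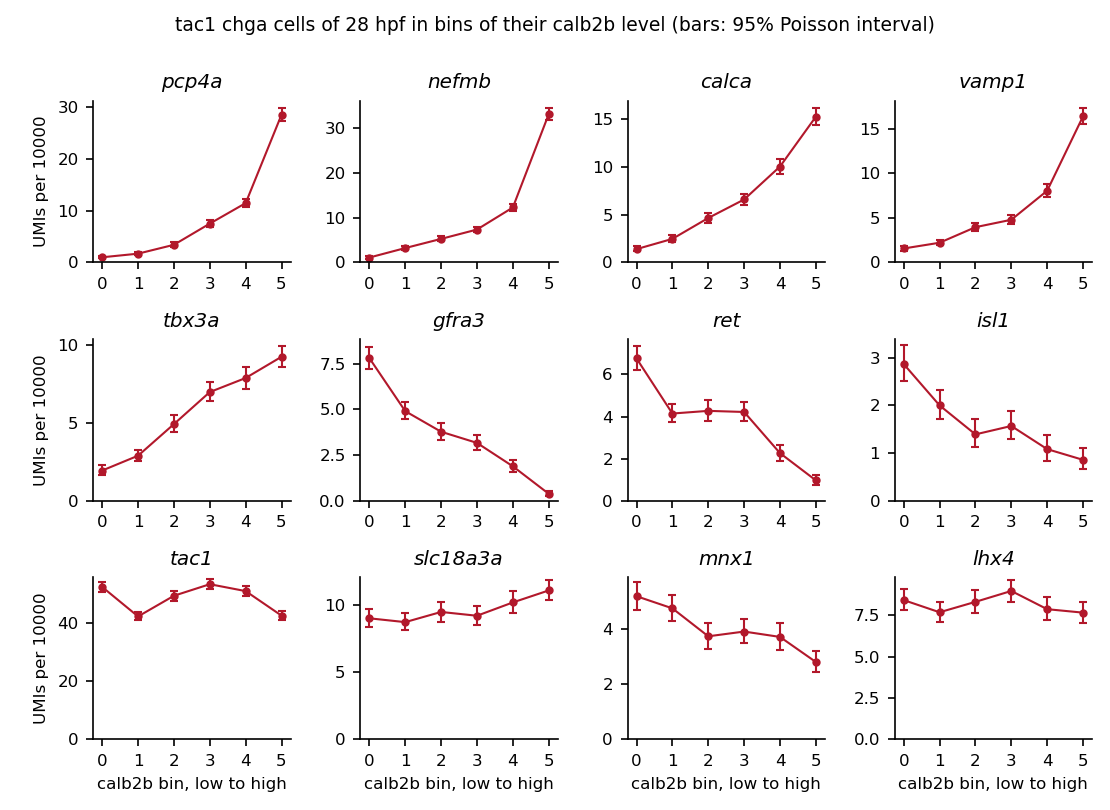
Summed level in UMIs per 10000 (y axis, starting at 0) of 12 genes in the 466 members, in bin 0 with no *calb2b* (96 cells) and bins 1 to 5 of rising *calb2b* level (74 cells each); whiskers are exact Poisson 95% intervals. *pcp4a* and *nefmb* are highest in bin 5 and *gfra3* in bin 0, while *tac1*, *slc18a3a* and *lhx4* are near level.

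Across single members, Spearman correlations of UMIs per 10000 describe the same pattern; these cells share 1 library and differ in depth, so the value after thinning to 4000 UMIs (418 cells) is given in parentheses. Among 2960 genes with at least 200 UMIs, *cplx2l* was most like *calb2b*, at 0.69 (0.69), then *calm1b* at 0.65 (0.65) and *vamp1* at 0.64 (0.58). For *pcp4a* the most like were *calm1b* at 0.70 (0.65), *syt12* at 0.69 (0.63) and *nefmb* at 0.66 (0.64). *gfra3* was the most unlike *calb2b*, at -0.56 (-0.45), and it was at -0.55 (-0.47) with *pcp4a*, -0.52 (-0.47) with *tbx3a* and 0.51 (0.40) with *ret*. Without the 67 members that also met the *dlb* rule, *calb2b* with *cplx2l* was at 0.67 and *calb2b* with *gfra3* at -0.52. For *tac1* the values were lower, but the rule cut its range at 10 UMIs per cell and set no limit on *calb2b* or *pcp4a*. The *tac1* values are therefore described only. The highest correlation of *tac1* was 0.35 (0.34), with *uts2d*, its lowest -0.37 (-0.24), with the zinc finger gene *sall1a*, and *tac1* was at -0.04 (-0.05) with *calb2b*.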

How the data were processed

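Fluorescent cells of *Tg(olig2:dsRed)* trunks were measured in 1 library at 28 hpf and 1 at 60 hpf; the paper's other stage was not analysed here. The deposited matrices give the count of UMIs for each gene in each barcode, not normalized. The authors obtained them with Cell Ranger (version 5.0.0 in the file headers) on GRCz11; the submitters' processing notes also name Scanpy. The matrices hold 27771 gene identifiers, and 550 symbols belong to more than 1, which were kept apart. Near-identical copies such as the *her4* genes share reads, so their counts are uncertain.

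The members, the comparison groups and the gene lists were chosen with earlier results of these data known. The 22 lists held 634 gene names, of which 603 were found, and the 17 marker lists 141, of which 140 were found. Levels, ratios and intervals were computed from raw counts with numpy 2.4.6, scipy 1.17.1 and pandas 2.3.3 in Python 3.11.15, and plots with matplotlib 3.10.9. The precision that depth gives is in the intervals. Shares of cells were taken after thinning to 4000 UMIs without replacement (seed 7). Doublets were predicted with Scrublet in scanpy 1.11.5 (anndata 0.12.19), at 0.8% for each 1000 cells, 6.71% at 28 hpf and 4.40% at 60 hpf, and were removed in an alternative only. Erythroid cells had at least 50% globin UMIs; they were taken as the background after seeing the data, since the muscle cells planned for it numbered 4.

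Genes named were the given markers, the 15 highest and 15 lowest of each comparison with at least 200 UMIs over both groups, the genes of the lists, and the 10 most like *tac1*. Likeness to *calb2b* and *pcp4a*, the *calb2b* split and bins, the sums of *hox* groups, and the naming of *cxcr4b*, *lin28a* and *sall1a* were chosen after values were seen. The fold rule and the intervals were tested on group totals simulated with counting error only. The changed genes there had expected counts above the minimum used here. That test therefore does not cover unevenness between cells or genes near the minimum. The alternatives changed the filters, the limits of the rules, the fold, the UMI minimum, the totals, the thinning and the removal of doublets.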

Additional observations from a re-analysis of the deposited data

How the results depend on the processing

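The number of members was 466 and lay between 355 and 567 over the other limits and filters. Counts of genes are given for the members against *dlb* cells, *tac1*-low cholinergic cells and 60 hpf cells. Without the *olig2* limit, 989 genes were lower than in *dlb* cells, 722 higher than in *tac1*-low cholinergic cells and 1826 higher than at 60 hpf. The *tac1*-low cholinergic cells kept their *olig2* limit in that setting. At 3-fold, 1099 were higher and 1261 lower than in *dlb* cells, 142 higher and 68 lower than in *tac1*-low cholinergic cells, and 610 higher and 676 lower than at 60 hpf. With a minimum of 50 UMIs, 228 were higher and 124 lower than in *tac1*-low cholinergic cells, and 638 higher and 1168 lower than at 60 hpf. With each cell thinned to 4000 UMIs, 1479 were lower than in *dlb* cells, 169 lower than in *tac1*-low cholinergic cells, and 561 higher and 1117 lower than at 60 hpf, while 501 in place of 442 were higher than in *tac1*-low cholinergic cells. The stricter fold and the higher minimum leave fewer genes by construction. Thinned to 2000 UMIs, *calb2b* was found in 57.5% of members, *pcp4a* in 43.0%, *tbx3a* in 53.4% and *slc18a3a* in 79.4%.

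Sign changes were counted only among the named and list genes that reached 2-fold in the main setting. Log2 ratios changed sign for these genes. Against *dlb* cells, *actc1b* was at 0.21 with *tac1* at 5 UMIs or more. Without the *pkd1l2a* limit, *urp1* was at 0.23, *scg3* at 0.067, *slc6a1b* at 0.29 and *ntrk3a* at 0.12. Against *dlb* cells with at most 2 UMIs of *pkd1l2a*, *lrfn4b* was at 0.042, *slc32a1* at 0.18, *gad1a* at 1.69, *pkd2l1* at 0.091, *kcnab1a* at 2.33, *scg3* at 0.26 and *ntrk3a* at 0.26. The next values are against *tac1*-low cholinergic cells, with the *olig2* limit lifted for the members only. *her6* was at 0.30, *her12* at 0.86, *her4.1* at 0.54, both identifiers of *her4.2* at 0.13 and 0.87, and *her4.4* at 0.20. Against 60 hpf cells, *gfap* was at 0.80 and *fabp7a* at 1.27 with the limits of *tac1* and *chga* set per 10000 UMIs. Of 422 named and list genes followed under those limits, 326 kept their call against 60 hpf cells. Another 35 fell below the fold, 59 newly reached it and 2 changed sign. The cause was not tested. No paired analysis was possible because there is 1 library per stage.

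Each stage is 1 library of pooled embryos, so no value has a replicate error. The limits on UMIs favour deep cells, and 48 members were too shallow for the shares at 4000 UMIs. Free RNA and doublets were not removed.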
